A study of Rattus norvegicus with 23 samples.

Results

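Lysosomal enzymes and membrane proteins were followed as a list of 43 rat genes named by gene symbol. No cutoff on measured values set the list, but it was chosen with earlier results of these data known. The authors' deposited tables name 39 of them, out of 14690 named identifiers in all, and Ctsh, Ctss, Ctsc and Sgsh were not analysed here. The 39 genes comprise 7 membrane proteins, 8 proteases, 9 sphingolipid and lipid hydrolases, 3 activator or precursor proteins, 10 hydrolases of glycans and glycosaminoglycans, and 2 transcription factors of the pathway. All 39 passed the filter on low counts in each fit, so no gene of the 39 drops out of the counts below.

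The lysosome is the acidic compartment in which a cell degrades proteins, lipids and glycans, and its hydrolases reach it mostly through the mannose 6-phosphate tag added in the Golgi. TFEB and TFE3 are related basic helix-loop-helix factors that bind E-box sequences in front of many lysosomal genes, and the kinase complex mTORC1 holds them in the cytoplasm when nutrients are plentiful. Oligodendrocytes turn over the sphingolipids of myelin in lysosomes: in humans loss of GALC causes Krabbe disease and loss of ARSA causes metachromatic leukodystrophy, and in mice TFEB has been described as a brake on oligodendrocyte survival and myelination.

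RNA was sequenced in 23 libraries of 6 groups. CG4 is an immortalised line that was derived from rat brain oligodendroglia, so all CG4 groups stem from 1 line. It gave 4 libraries with Zfp488 added on the construct pCAG-myc-Zfp488-IRES-EGFP, 4 with Nkx2.2 added on pCAG-T7-Nkx2.2-IRES-EGFP, and 4 controls with pCAG-IRES-EGFP, which carries GFP alone. The constructs were brought in by transduction. These 12 cultures were differentiated for 3 days in SATO medium with high T3/T4 and CNTF, and the CAG promoter drives expression in most cell types. Another 3 libraries came from wild-type CG4 cells without a vector, kept proliferating in basal medium with bFGF and PDGF-AA. Wild-type primary rat oligodendroglia, shaken off mixed glial cultures, gave 4 libraries after 3 days of the same differentiation and 4 under the same proliferative conditions. The titles call the libraries of a group biological replicates, and p-values measure the spread between these libraries only.

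Total counts per library were 29906831 to 43307908 with Zfp488, 31112360 to 40854053 with Nkx2.2, 39268564 to 49206479 in control, 32454992 to 42318101 in proliferating CG4 cells and, for primary cells, 22624183 to 36301186 after differentiation and 20063345 to 33130502 under proliferative conditions. Levels below are CPM, counts scaled to library size by TMM over the 15219 genes that all 23 libraries share. CPM are not divided by gene length, so levels are compared between libraries and never between genes. Changes are log2 fold changes ± SE from edgeR's quasi-likelihood test, with p-values adjusted over all genes tested, and a gene is said to rise or fall where its adjusted p is under 0.05. Proliferating CG4 cells were read at 2x100 bases and all others at 2x150, and the differentiating CG4 files list 32552 genes, so in CG4 cells the condition cannot be told apart from read length, vector and gene list. Among differentiating primary libraries, 1 resembles 2 and 3 resembles 4 more than either pair resembles the other (chi-square over degrees of freedom of 8.45 and 1.77 within the pairs and 29.3 to 37.1 across them). The same value was 2.15 to 4.48 between proliferating primary libraries, 20.7 to 148 between controls and 153 to 265 between proliferating CG4 libraries. Proliferating primary libraries thus differ little beyond counting noise, and small p-values in primary cells rest on this narrow spread. Zfp488 reached 130.5 to 199.99 CPM in the Zfp488 libraries, against 33.7 to 59.0 CPM in control. Nkx2-2 reached 1282 to 1990.4 CPM in the Nkx2.2 libraries, against 211 to 299 CPM in control, so both introduced genes go with their labels.

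Promoters are shown because Tfeb and Tfe3 of the list encode factors known to bind E-boxes. Tfeb rose in both differentiation comparisons, and Tfe3 fell in primary cells and did not pass in CG4 cells. Whether either factor acts on the genes of the list was not tested. The E-box CACGTG, which reads the same on both strands, was searched in RefSeq promoter windows of the GRCr8 assembly, 250 bases before to 50 after each gene start. Windows were found for 32 of the 39 genes by symbol. Of these, 11 (34.4%) hold the E-box, against 2148 of all 33469 windows (6.42%), and 4 of the 11 hold it 2 or more times. All 39 genes passed the filter on low counts, and the 33469 windows were not limited to such genes. The 2 shares are thus of unlike sets. The first 270 bases are printed 5′ to 3′ on the strand of the gene, with the E-box in capitals, for the 4 genes with an E-box that passed the test in the most comparisons, and for Lamp1, which holds the most copies and was chosen after the search. The reads were counted on another build, rn6, so the positions serve only to locate these sequences.
Glb1, chr8:122963468-122963737, + strand: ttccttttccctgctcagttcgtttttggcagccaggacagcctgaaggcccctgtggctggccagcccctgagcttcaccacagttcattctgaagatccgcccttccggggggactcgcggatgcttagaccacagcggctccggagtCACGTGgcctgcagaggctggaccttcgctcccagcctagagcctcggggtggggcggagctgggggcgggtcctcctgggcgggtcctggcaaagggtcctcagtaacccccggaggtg
Ctsf, chr1:211581919-211582188, + strand: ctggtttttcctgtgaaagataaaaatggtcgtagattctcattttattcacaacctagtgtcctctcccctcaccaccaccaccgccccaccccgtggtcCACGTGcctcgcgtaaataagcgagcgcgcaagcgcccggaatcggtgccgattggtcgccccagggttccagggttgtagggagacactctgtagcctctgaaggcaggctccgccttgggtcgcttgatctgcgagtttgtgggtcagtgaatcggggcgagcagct
Cd63, chr7:1921894-1922163, + strand: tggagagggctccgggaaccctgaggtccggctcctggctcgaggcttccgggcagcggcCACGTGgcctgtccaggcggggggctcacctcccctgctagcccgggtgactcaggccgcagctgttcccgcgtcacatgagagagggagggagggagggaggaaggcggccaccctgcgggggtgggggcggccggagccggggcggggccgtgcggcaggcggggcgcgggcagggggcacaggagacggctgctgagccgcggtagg
Idua, chr14:1190909-1191178, - strand: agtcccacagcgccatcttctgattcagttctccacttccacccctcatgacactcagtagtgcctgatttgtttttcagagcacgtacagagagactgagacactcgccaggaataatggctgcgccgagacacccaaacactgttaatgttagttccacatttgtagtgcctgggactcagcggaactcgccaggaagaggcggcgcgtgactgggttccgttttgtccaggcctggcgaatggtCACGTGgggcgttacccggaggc
Lamp1, chr16:83075044-83075313, - strand: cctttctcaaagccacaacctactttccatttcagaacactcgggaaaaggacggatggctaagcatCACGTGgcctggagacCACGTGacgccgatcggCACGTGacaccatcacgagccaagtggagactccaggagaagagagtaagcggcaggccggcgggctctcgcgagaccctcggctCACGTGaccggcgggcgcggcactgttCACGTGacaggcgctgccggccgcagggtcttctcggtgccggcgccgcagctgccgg
The E-box begins 100 bases before the start in Glb1, the lysosomal beta-galactosidase, and 149 bases before it in Ctsf, the cysteine protease cathepsin F. It begins 190 bases before the start in Cd63, a tetraspanin of late endosomes, and 3 bases before it in Idua, the alpha-L-iduronidase that degrades glycosaminoglycans. Lamp1, the main glycoprotein of the lysosomal membrane, holds 5 copies, at 183, 167, 150, 65 and 38 bases before the start. The other windows with a copy belong to Ctsd, Gaa, Galc, Mcoln1, Tmem175 and Cln3. A match is a string of letters and says nothing of binding. In CG4 differentiation 10 of the 11 genes with an E-box rose and none fell, and 14 of the 21 without one rose and 1 fell. In primary differentiation 9 of the 11 rose and 2 fell (Cd63 and Idua, both printed above), and 12 of the 21 without one rose and 7 fell. Of all genes tested 32.5% rose and 33.2% fell in CG4 differentiation, and 41.5% rose and 43.3% fell in primary differentiation. With Zfp488, 1 of the 11 rose and none fell, and 4 of the 21 without one rose and 1 fell. With Nkx2.2, 2 of the 11 and 2 of the 21 rose, and none fell. Between the factors, 1 of the 11 was higher and 3 lower with Zfp488, and 2 of the 21 were higher and 1 lower. The response to differentiation was higher in CG4 than in primary cells for 6 of the 11 and lower for 2. It was higher for 11 of the 21 and lower for 7. The difference between genes with and without the E-box was not tested in any comparison.

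Summed over the 39 genes, the level was lowest in proliferating CG4 cells. It was 8879 to 10985 CPM with Zfp488, 8178 to 9637 CPM with Nkx2.2, 7552 to 8539 CPM in control and 3245 to 3575 CPM in proliferating CG4 cells. Primary cells held 8369.7 to 9518 CPM when differentiating and 6801 to 7146 CPM when proliferating. Psap, the precursor of the saposins that present sphingolipids to their hydrolases, contributes the most counts to these sums. By group mean, 23 of the 39 genes were lowest in proliferating CG4 cells, 6 in proliferating and 6 in differentiating primary cells, 2 in the Zfp488 group and 2 in control. The highest mean lay in the Nkx2.2 group for 11 genes, in differentiating primary cells for 10, in the Zfp488 group for 8, in proliferating primary cells for 5, in proliferating CG4 cells for 3 and in control for 2. The 5 genes highest in proliferating primary cells were Cd63, Ctsb, Ctsz, Gm2a and Grn. In these bulk libraries a change in the share of a cell type and a change in RNA per cell cannot be told apart.

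**Figure D1:**
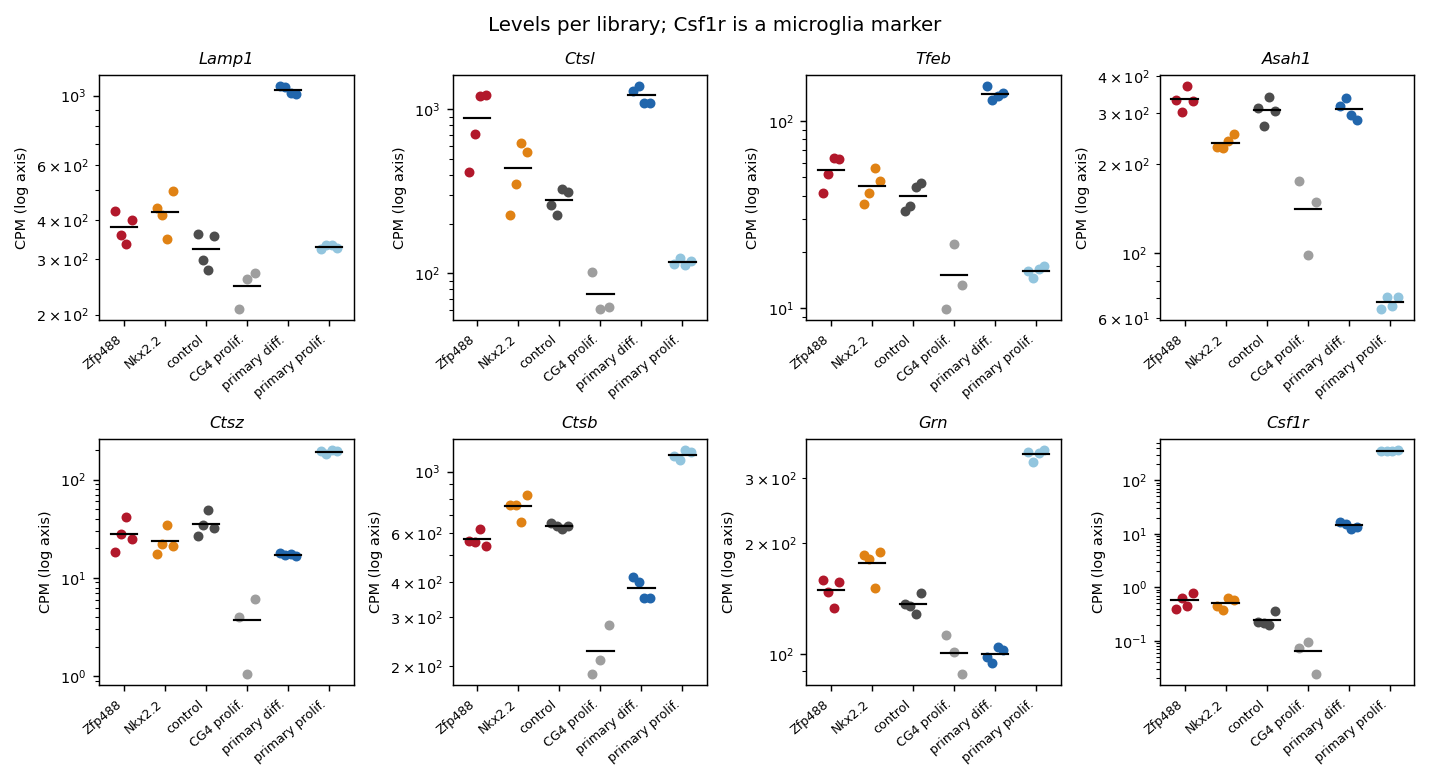
Level in CPM on a log axis for 7 lysosomal genes and the microglia marker Csf1r, 1 point per library and a line at the group mean, in 6 groups of 4 libraries (3 for proliferating CG4 cells). Lamp1, Ctsl and Tfeb are highest in differentiating primary cells, and Ctsz, Ctsb, Grn and Csf1r are highest in proliferating primary cells.

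Differentiating primary oligodendroglia were compared with proliferating ones to ask what the lysosomal genes do when primary cells mature. Of the 39 genes, 25 rose, 11 fell and 3 did not pass (Ctsa, Psap and Gusb). Across all 12310 genes tested 84.8% passed, 41.5% higher and 43.3% lower, so a call by itself says little here. The median log2 fold change was 0.36 over the 39 genes and -0.02 over all genes tested. The groups did not overlap for 24 genes higher and 9 lower, against 38.1% and 43.2% of all genes (81.3% in either direction). Rises covered 8 of 9 sphingolipid and lipid hydrolases and 6 of 7 membrane proteins. Among the proteases 4 of 8 rose and 3 fell, among the glycan hydrolases 6 of 10 rose and 3 fell, and among the activator proteins none of 3 rose and 2 fell.

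Of the membrane proteins, Lamp1 (ENSRNOG00000019629) had 1076, 1064, 1016 and 1009 CPM in differentiating primary cells, against 324, 334, 333 and 326 CPM in proliferating ones. Its groups were about 3-fold apart and far from overlap, with a log2 fold change of 1.70 ± 0.04 (n = 4 and 4, edgeR adjusted p = 9.47e-12). Scarb2, the receptor that carries glucocerebrosidase to the lysosome, rose by 2.64 ± 0.10 and Lamp2, the second major membrane glycoprotein, by 0.93 ± 0.04. The membrane protein Cln3 (log2 0.74), the potassium channel Tmem175 (0.73) and the calcium channel Mcoln1 (0.64) rose by smaller amounts. Cd63 was the only one of these 7 to fall, by 0.96 ± 0.06 on the log2 scale, with 426 to 508 CPM in differentiating and 900.5 to 969 CPM in proliferating cells.

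The proteases moved in opposite directions. Ctsl, the cysteine protease cathepsin L, had 1291, 1395, 1098 and 1098 CPM in differentiating primary cells, against 113, 124, 112 and 118 CPM in proliferating ones, a log2 fold change of 3.43 ± 0.08 (n = 4 and 4, edgeR adjusted p = 1.62e-11). Ctsz, the carboxypeptidase cathepsin Z, had 17.9, 17.0, 17.4 and 16.5 CPM in differentiating cells, against 195, 179.9, 198 and 195 CPM in proliferating ones, a log2 fold change of -3.44 ± 0.05 (n = 4 and 4, edgeR adjusted p = 4.77e-13). Each of these groups was tight, and the changes of Ctsl and Ctsz were of like size and opposite sign. Ctsb, cathepsin B, had 417, 403, 352 and 351 CPM in differentiating cells, against 1136, 1099, 1192 and 1179 CPM in proliferating ones, a log2 fold change of -1.56 ± 0.06 without overlap. Ctsd (ENSRNOG00000020206), the aspartic protease cathepsin D, had 595, 562, 495 and 483 CPM in differentiating cells, against 460.4, 442, 473 and 457 CPM in proliferating ones, a small rise of 0.26 ± 0.06 (n = 4 and 4, edgeR adjusted p = 0.00219). Ctsd was higher in differentiating libraries 1 and 2 than in libraries 3 and 4, the same split as the resembling pairs. Ctsf (log2 0.75) and the tripeptidyl peptidase Tpp1 (0.34) also rose. Ctsa, the protective protein of the beta-galactosidase and sialidase complex, had 194, 186, 209 and 218 CPM in differentiating cells, against 193, 181, 196 and 191 CPM in proliferating ones, and did not pass (log2 0.13 ± 0.06, n = 4 and 4, edgeR adjusted p = 0.0644). It passed without differentiating libraries 1 and 2 (log2 0.22, edgeR adjusted p = 2.09e-06), without library 1 or 2 alone (0.0296 and 0.0089), with close pairs summed (0.0322), with RLE scaling (0.0292), with the replicate block (0.0407) and in DESeq2 (adjusted p = 0.0279). Ctsk, cathepsin K, stood near 1 CPM with overlapping groups (0.193 to 0.921 CPM in differentiating and 0.747 to 1.28 CPM in proliferating cells), and its fall of 1.00 ± 0.33 rests on few counts.

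Of the 9 sphingolipid and lipid hydrolases 8 rose. Asah1, acid ceramidase, had 317, 338, 295 and 284 CPM in differentiating cells, against 64.2, 70.8, 65.8 and 70.7 CPM in proliferating ones, a log2 fold change of 2.23 ± 0.06 (n = 4 and 4, edgeR adjusted p = 3.36e-11). Smpd1, acid sphingomyelinase, had 376, 348, 314 and 306 CPM in differentiating cells, against 84.2, 79.2, 84.4 and 78.9 CPM in proliferating ones, a log2 fold change of 2.08 ± 0.06 (n = 4 and 4, edgeR adjusted p = 1.23e-10). Arsa (ENSRNOG00000012953), the sulfatase that degrades the myelin lipid sulfatide, had 103, 102, 89.4 and 89.6 CPM in differentiating cells, against 28.7, 26.5, 27.5 and 27.9 CPM in proliferating ones, a log2 fold change of 1.84 ± 0.06 (n = 4 and 4, edgeR adjusted p = 1.23e-10). In these 3 genes all differentiating libraries lay above all proliferating ones, by a wide gap. Galc (ENSRNOG00000003759), the galactosylceramidase of myelin, had 22.2, 22.9, 24.3 and 26.9 CPM in differentiating cells, against 19.5, 21.9, 17.8 and 18.8 CPM in proliferating ones, a rise of 0.34 ± 0.09 (n = 4 and 4, edgeR adjusted p = 0.00307). Its groups lay close together without overlapping. Gla, the alpha-galactosidase A, rose by 1.57, the acid lipase Lipa by 1.53, the hexosaminidase alpha subunit Hexa by 1.33 and Glb1 by 0.36 on the log2 scale. Ppt1, the palmitoyl-protein thioesterase, fell by 0.48 ± 0.06.

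None of the 3 activator and precursor proteins rose. Psap (ENSRNOG00000000571) had 1754, 1623, 1500.2 and 1489.9 CPM in differentiating cells, against 1618, 1523, 1636 and 1632 CPM in proliferating ones, and the groups overlapped (log2 fold change 0.03 ± 0.05, n = 4 and 4, edgeR adjusted p = 0.584). Without differentiating libraries 3 and 4, Psap passed with a log2 fold change of 0.14 (edgeR adjusted p = 0.00594). Gm2a, the activator that presents GM2 ganglioside to hexosaminidase A, fell by 0.96 ± 0.07. Grn, the precursor of the granulins, had 98.0, 94.5, 105 and 103 CPM in differentiating cells, against 352, 332, 351 and 357 CPM in proliferating ones, a log2 fold change of -1.76 ± 0.05 (n = 4 and 4, edgeR adjusted p = 4.49e-11). The Grn groups were far apart.

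Among the glycan and glycosaminoglycan hydrolases, the sulfatase Arsb (log2 1.36), the sialidase Neu1 (0.95), the beta-mannosidase Manba (0.83) and the acid alpha-glucosidase Gaa (0.77) rose. Idua had 7.96, 8.74, 12.5 and 10.3 CPM in differentiating cells, against 27.3, 23.4, 24.1 and 23.5 CPM in proliferating ones, a log2 fold change of -1.29 ± 0.13 without overlap. Naglu, which acts on heparan sulfate, fell by 0.71 ± 0.07. Ids, the iduronate sulfatase, had 68.8, 75.9, 78.3 and 77.7 CPM in differentiating cells, against 64.9, 68.5, 66.8 and 68.1 CPM in proliferating ones (log2 0.21 ± 0.05). The fucosidase Fuca1 had 94.0, 87.0, 92.4 and 92.1 CPM in differentiating cells, against 85.9, 87.4, 84.6 and 89.7 CPM in proliferating ones (log2 0.11 ± 0.04). The alpha-mannosidase Man2b1 had 98.3, 90.7, 101 and 92.4 CPM in differentiating cells, against 114, 98.8, 109 and 112 CPM in proliferating ones (log2 -0.14 ± 0.06). The groups of Ids nearly met, and those of Fuca1 and Man2b1 overlapped. The Fuca1 call was lost without proliferating replicate 1 or 3 (edgeR adjusted p = 0.0537 and 0.0656). The Man2b1 call was lost without proliferating replicate 1, 3 or 4 or differentiating replicate 2 or 4 (edgeR adjusted p 0.0656 to 0.131). Gusb, the beta-glucuronidase, differed by -0.01 ± 0.05 with overlapping groups.

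The pair of transcription factors split. Tfeb (ENSRNOG00000014666) had 155, 129.8, 136 and 141 CPM in differentiating primary cells, against 15.8, 14.5, 16.2 and 16.9 CPM in proliferating ones, a log2 fold change of 3.19 ± 0.07 (n = 4 and 4, edgeR adjusted p = 7.51e-12). Tfe3 (ENSRNOG00000009605) had 26.5, 26.6, 27.6 and 26.4 CPM in differentiating cells, against 43.4, 41.8, 42.5 and 43.9 CPM in proliferating ones, a log2 fold change of -0.64 ± 0.04 (n = 4 and 4, edgeR adjusted p = 5.49e-08). Neither pair of groups overlapped, and RNA levels do not show where in the cell these factors are.

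Markers of microglia, the phagocytes that mixed glial cultures can carry over, fell alongside Ctsz, Ctsb and Grn. The authors' tables name 5 of 18 microglia and macrophage markers, and all 5 fell. Csf1r, the colony-stimulating factor 1 receptor, had 16.4, 15.5, 12.3 and 13.2 CPM in differentiating primary cells, against 357, 346, 356 and 362 CPM in proliferating ones (log2 fold change -4.58 ± 0.08). The 5 markers (Csf1r, P2ry12, Cd68, Laptm5 and Fcer1g) summed to 47.9 to 54.2 CPM in differentiating primary cells, against 668 to 689 CPM in proliferating ones. None was at 0 in a primary library. The 3 named fibroblast and vessel markers also fell, with a sum of 9.81 to 20.2 CPM in differentiating and 126 to 154 CPM in proliferating cells. Of 7 named astrocyte markers 6 rose, with a sum of 1373 to 2560.3 CPM in differentiating and 223 to 233 CPM in proliferating cells. Of 10 oligodendroglia markers 9 rose and 1 fell, with a sum of 93257 to 103704 CPM in differentiating and 4480.0 to 4803 CPM in proliferating cells, against 5057 to 7131 CPM in proliferating CG4 cells. Of 5 named neuron markers 4 fell and Syt1 rose, with a sum of 385 to 486 CPM in differentiating and 714 to 741 CPM in proliferating cells. Of 5 named Schwann cell markers 3 rose and 2 fell, with a sum of 71.8 to 165 CPM in differentiating and 138 to 148 CPM in proliferating cells. The part of these cell types in the changes of the lysosomal genes was not tested. CG4 libraries held 7.15 to 12.9 CPM of the 5 microglia markers in control and 5.10 to 6.95 CPM when proliferating, with Laptm5 at 0 in 1 proliferating library. In CG4 differentiation 4 of the 5 were tested and Fcer1g rose. Other markers moved with CG4 differentiation too: 5 of 7 astrocyte markers rose, with a sum of 1224 to 3068 CPM in control and 254 to 554 CPM in proliferating CG4 cells, and both tested fibroblast and vessel markers rose (8.20 to 21.1 CPM in control and 1.92 to 5.51 CPM in proliferating CG4 cells for the 3 named). Of the oligodendroglia markers 6 of 10 rose and 2 fell, of the Schwann cell markers 3 of 5 rose and 1 fell, and of the neuron markers 2 of 5 rose and 2 fell. Their part in the CG4 changes was not tested.

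The first differentiation comparison and its CG4 counterpart are set side by side in the plot of log2 fold changes by role.

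**Figure D2:**
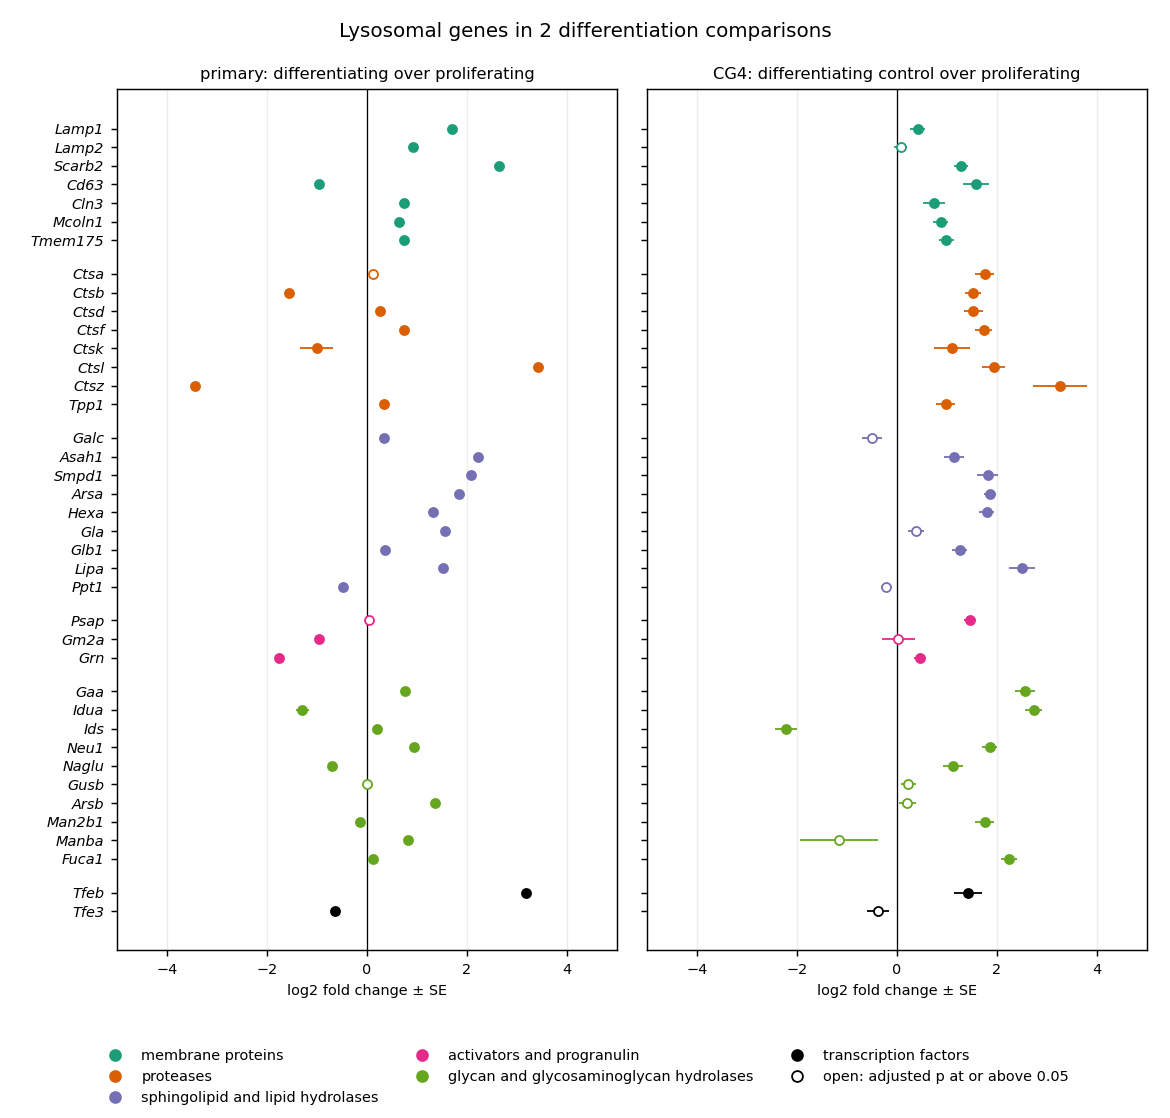
Log2 fold change ± SE of 39 lysosomal genes in differentiating over proliferating primary cells (left, n = 4 and 4) and in differentiating control over proliferating CG4 cells (right, n = 4 and 3), coloured by role, open where the adjusted p is at or above 0.05. Rises and falls are mixed in primary cells (25 and 11), and nearly all passing genes lie right of 0 in CG4 cells (29 and 1).

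Differentiating CG4 control cells were compared with proliferating CG4 cells to ask the same of the cell line. Here 29 of the 39 genes rose, 1 fell and 9 did not pass. Across the 12486 genes tested 65.8% passed, 32.5% higher and 33.2% lower. The median log2 fold change was 1.26 over the 39 genes and 0.01 over all genes tested. Rises covered 6 of 7 membrane proteins, all 8 proteases, 6 of 9 sphingolipid and lipid hydrolases and 6 of 10 glycan hydrolases. The groups did not overlap for 29 genes higher and 3 lower, against 32.9% and 34.2% of all genes (67.1% in either direction). The genes that did not pass were Galc, Gla, Ppt1, Tfe3, Gusb, Manba, Arsb, Lamp2 and Gm2a.

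Of the 7 membrane proteins 6 rose in the cell line. Lamp1 had 363, 298, 278 and 356 CPM in control, against 208, 260.0 and 271 CPM in proliferating CG4 cells, a log2 fold change of 0.42 ± 0.15 (n = 4 and 3, edgeR adjusted p = 0.0357). The groups came close without overlapping, and the call was lost without control replicate 1, 2 or 4 or proliferating replicate 1 (edgeR adjusted p 0.0559 to 0.0989). Cd63, which fell in primary cells, rose by 1.59 ± 0.26 here, with 429 to 696 CPM in control and 146 to 279 CPM in proliferating CG4 cells. Scarb2 (1.29), Tmem175 (0.99), Mcoln1 (0.89) and Cln3 (0.75) rose as well on the log2 scale.

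Every protease rose, including those that fell in primary cells. Ctsz had 26.8, 34.9, 49.1 and 32.0 CPM in control, against 4.02, 1.06 and 6.16 CPM in proliferating CG4 cells, a log2 fold change of 3.27 ± 0.53 (n = 4 and 3, edgeR adjusted p = 0.000864). Ctsb had 655, 636, 622 and 639 CPM in control, against 188, 210.4 and 282 CPM in proliferating cells, a log2 fold change of 1.52 ± 0.16 (n = 4 and 3, edgeR adjusted p = 7.62e-05). Neither gene had overlapping groups, and proliferating replicate 2 was lowest for Ctsz. Ctsf had 42.7, 41.4, 50.5 and 47.9 CPM in control, against 13.9, 11.2 and 16.6 CPM in proliferating cells, a log2 fold change of 1.74 ± 0.17 (n = 4 and 3, edgeR adjusted p = 4.97e-05). Ctsd had 497, 395, 300.2 and 466 CPM in control, against 129, 159 and 151 CPM in proliferating cells, a log2 fold change of 1.53 ± 0.19 (n = 4 and 3, edgeR adjusted p = 0.000218). Control replicate 3 had the least Ctsd of the 4 controls and still lay above all proliferating libraries. Ctsl rose by 1.94 ± 0.23, Ctsa by 1.76 ± 0.19, and Tpp1 by 0.98 ± 0.20. Ctsk, at 1.21 to 1.92 CPM in control and 0.457 to 0.971 CPM in proliferating cells, rose by 1.11 ± 0.36, a call lost without control replicate 2 or 4 or proliferating replicate 1 (edgeR adjusted p 0.0506 to 0.0722).

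Of the 9 lipid hydrolases 6 rose and none fell. Arsa had 83.4, 80.7, 91.5 and 77.0 CPM in control, against 21.8, 22.6 and 25.8 CPM in proliferating CG4 cells, a log2 fold change of 1.86 ± 0.12 (n = 4 and 3, edgeR adjusted p = 7.31e-06). Hexa had 293, 300.4, 304 and 366 CPM in control, against 101, 74.1 and 102 CPM in proliferating cells, a log2 fold change of 1.80 ± 0.15 (n = 4 and 3, edgeR adjusted p = 2.65e-05). Both groups of Arsa and Hexa stood clearly apart. Galc had 10.2, 10.3, 10.4 and 10.1 CPM in control, against 17.6, 10.7 and 16.2 CPM in proliferating cells. Its log2 difference of -0.50 ± 0.20 did not pass (n = 4 and 3, edgeR adjusted p = 0.0518) although the groups did not overlap, and it passed without proliferating replicate 2 (log2 -0.69, edgeR adjusted p = 0.00451), with thinned counts (edgeR adjusted p = 0.0481) and in DESeq2 (adjusted p = 0.0336). Lipa rose by 2.5, Smpd1 by 1.82, Glb1 by 1.26 and Asah1 by 1.15 on the log2 scale. The differences of Gla (0.39 ± 0.16) and Ppt1 (-0.21 ± 0.11) did not pass. Gla passed with RLE scaling (edgeR adjusted p = 0.0398), in DESeq2 (adjusted p = 0.032), without control replicate 3 (edgeR adjusted p = 0.0451) and without proliferating replicate 1 (0.015).

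Psap had 1872, 1759, 1792 and 2024 CPM in control, against 683, 641 and 726 CPM in proliferating CG4 cells, a log2 fold change of 1.47 ± 0.12 (n = 4 and 3, edgeR adjusted p = 2.42e-05). Every control library lay far above every proliferating one. Grn had 137, 135, 129 and 147 CPM in control, against 113, 101 and 88.5 CPM in proliferating cells, a rise of 0.47 ± 0.12, and Gm2a differed by 0.03 ± 0.33 with overlapping groups.

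Some of the steepest changes lay among the glycan hydrolases. Idua had 94.96, 87.1, 101 and 99.4 CPM in control, against 18.6, 12.3 and 12.9 CPM in proliferating CG4 cells, a log2 fold change of 2.74 ± 0.17 (n = 4 and 3, edgeR adjusted p = 5.91e-06). Fuca1 had 252, 241, 207 and 248 CPM in control, against 61.9, 47.3 and 44.0 CPM in proliferating cells, a log2 fold change of 2.24 ± 0.16 (n = 4 and 3, edgeR adjusted p = 9.83e-06). Gaa had 147, 174, 239 and 199 CPM in control, against 28.3, 29.7 and 39.7 CPM in proliferating cells, a log2 fold change of 2.57 ± 0.21 (n = 4 and 3, edgeR adjusted p = 1.98e-05). In all 3 genes the groups stood several-fold apart. Neu1 had 60.1, 51.4, 53.0 and 62.3 CPM in control, against 13.4, 17.8 and 16.5 CPM in proliferating cells, a log2 fold change of 1.86 ± 0.15 (n = 4 and 3, edgeR adjusted p = 1.95e-05). Ids was the gene that fell, with 47.0, 38.8, 26.9 and 26.8 CPM in control, against 148, 174 and 175 CPM in proliferating cells, a log2 fold change of -2.22 ± 0.22 (n = 4 and 3, edgeR adjusted p = 6.01e-05). All control libraries lay far below the proliferating ones for Ids. Man2b1 had 238, 232, 282 and 294 CPM in control, against 103, 63.4 and 69.2 CPM in proliferating cells, a log2 fold change of 1.76 ± 0.19. Manba stood at 0.216 to 0.358 CPM in control and 0.0722 to 1.41 CPM in proliferating CG4 cells, too low for a firm statement, against 13.1 to 14.8 CPM in differentiating and 7.53 to 8.75 CPM in proliferating primary cells. Without proliferating CG4 replicate 1 Manba passed with a log2 fold change of -1.69 (edgeR adjusted p = 0.0216), and Gusb, at 0.23 ± 0.15 over all libraries, passed with 0.40 (edgeR adjusted p = 0.0261).

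Tfeb rose in CG4 cells too, with 33.0, 35.3, 44.6 and 46.5 CPM in control, against 9.91, 22.1 and 13.4 CPM in proliferating cells, a log2 fold change of 1.42 ± 0.28 (n = 4 and 3, edgeR adjusted p = 0.00242). Tfe3 had 38.8, 34.1, 29.7 and 34.9 CPM in control, against 63.9, 38.6 and 34.6 CPM in proliferating cells, and its groups overlapped (log2 -0.38 ± 0.22, n = 4 and 3, edgeR adjusted p = 0.156). Proliferating replicate 1 held far more Tfe3 than the other two of its group.

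The responses of the cell line and of primary cells share no library, and an interaction term tested their difference. That fit used a shared estimate of the spread for each gene over CG4 and primary libraries, although CG4 libraries spread more. For Ctsz and Fuca1 the SE of the difference is therefore below that of the CG4 response alone. The p-values of the difference do not measure the spread of CG4 libraries by itself. Of the 39 genes 19 rose in both comparisons, 8 rose in CG4 cells and fell in primary cells, and 1, Ids, fell in CG4 cells and rose in primary cells. The difference of the responses passed for 32 genes, 21 with a higher response in CG4 cells and 11 with a lower one. Across all genes tested 69.3% passed, 33.8% higher and 35.4% lower. The median difference was 0.51 over the 39 genes and -0.03 over all genes tested.

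All 8 genes that rose in CG4 cells and fell in primary cells passed the interaction (Idua, Cd63, Ctsb, Grn, Ctsk, Man2b1, Naglu and Ctsz). The response of Ctsz differed by 6.74 ± 0.49 on the log2 scale (edgeR adjusted p = 1.91e-08), that of Idua by 4.06 ± 0.22 (edgeR adjusted p = 9.68e-10) and that of Ctsb by 3.12 ± 0.16 (edgeR adjusted p = 5.17e-10). Grn differed by 2.27 ± 0.12 (edgeR adjusted p = 4.68e-10) and Man2b1 by 1.94 ± 0.19 (edgeR adjusted p = 5.27e-07). All 5 microglia markers move with this contrast, with a response higher in CG4 cells by 3.68 (P2ry12) to 6.63 (Csf1r), and so do the 3 fibroblast and vessel markers. Their part in the interaction was not tested.

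A lower response in CG4 cells than in primary cells was found for 5 of the 19 genes that rose in both: Scarb2 (-1.31), Asah1 (-1.03), Tfeb (-1.72), Ctsl (-1.44) and Lamp1 (-1.24 on the log2 scale, each with an SE of 0.14 to 0.27). A higher response was found for 9, with Fuca1 at 2.17 ± 0.15, Gaa at 1.85 ± 0.21 and Ctsd at 1.31 ± 0.20 the 3 largest. For the other 5 (Tmem175, Mcoln1, Arsa, Smpd1 and Cln3) the difference did not pass, and Arsa, with 0.06 ± 0.12, had the smallest SE of them. Tmem175 (0.30 ± 0.14, edgeR adjusted p = 0.0643) passed with RLE scaling (0.0294), in DESeq2 (adjusted p = 0.0242), with the replicate block (0.0499), with thinned counts (0.0381) and without control replicate 2 or proliferating CG4 replicate 3 (0.0248 and 0.0171). Mcoln1 (0.29 ± 0.17, edgeR adjusted p = 0.131) passed without differentiating primary libraries 3 and 4 (log2 0.46, edgeR adjusted p = 0.0297). Gusb (0.28 ± 0.15, edgeR adjusted p = 0.115) passed without proliferating CG4 replicate 1 (log2 0.44, edgeR adjusted p = 0.00298) and with thinned counts (0.0424). The calls of Ppt1 and Manba were lost without proliferating CG4 replicate 2 (edgeR adjusted p = 0.0657 and 0.238), that of Ppt1 also without control replicate 1 or 4, proliferating CG4 replicate 3, differentiating primary replicate 3 or 4 or proliferating primary replicate 2, 3 or 4 (edgeR adjusted p 0.051 to 0.077), and Tfe3 passed without proliferating CG4 replicate 1 (log2 0.61, edgeR adjusted p = 0.000663). Without differentiating primary libraries 1 and 2 Gm2a and Manba were lost (edgeR adjusted p = 0.0635 and 0.0575), and without libraries 3 and 4 Hexa and Ppt1 were (0.0984 and 0.149). With the close pairs summed Ppt1 and Manba were lost (edgeR adjusted p = 0.0687 and 0.0506). The difference for Tfe3 over all libraries was 0.30 ± 0.22 (edgeR adjusted p = 0.242). Psap differed by 1.49 ± 0.12 (edgeR adjusted p = 3.55e-08), Galc by -0.81 ± 0.20 (edgeR adjusted p = 0.00206) and Ids by -2.38 ± 0.22 (edgeR adjusted p = 2.29e-07).

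Added Zfp488, a zinc finger regulator of oligodendroglia, was compared with control in differentiating CG4 cells. Of the 39 genes 6 rose (Lipa, Ctsl, Smpd1, Scarb2, Cd63 and Arsb), 1 fell (Man2b1) and 32 did not pass. Across all 14811 genes tested 9.04% passed, 5.89% higher and 3.15% lower, against 15.4% higher and 2.56% lower among the 39 genes. The median log2 fold change was 0.10 over the 39 genes and -0.02 over all genes tested.

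Lipa, the acid lipase that hydrolyses cholesteryl esters, had 469, 901, 460.1 and 1078 CPM with Zfp488, against 213, 199, 171 and 279 CPM in control, a log2 fold change of 1.76 ± 0.27 (n = 4 and 4, edgeR adjusted p = 0.00364). Zfp488 replicates 2 and 4 stood far above replicates 1 and 3, and all 4 lay above every control. Ctsl had 415, 703, 1200.2 and 1218 CPM with Zfp488, against 262, 226, 326 and 313 CPM in control, a log2 fold change of 1.66 ± 0.36 (n = 4 and 4, edgeR adjusted p = 0.0155). Smpd1 had 333, 509.6, 647 and 684 CPM with Zfp488, against 213, 233, 314 and 319.9 CPM in control, a log2 fold change of 1.02 ± 0.23 (n = 4 and 4, edgeR adjusted p = 0.0187). For Ctsl and Smpd1 the Zfp488 groups spread widely, with replicate 1 lowest, and lay above control without overlap. Scarb2 had 229, 254, 298 and 351 CPM with Zfp488, against 183, 186, 207 and 176 CPM in control, a log2 fold change of 0.60 ± 0.14 (n = 4 and 4, edgeR adjusted p = 0.0201). Cd63 had 861, 872, 700.1 and 884 CPM with Zfp488, against 696, 605, 429 and 624 CPM in control, a log2 fold change of 0.51 ± 0.14 (n = 4 and 4, edgeR adjusted p = 0.0482). Zfp488 replicate 3 and control replicate 1 came within a few CPM of each other for Cd63. Arsb had 265, 315, 339 and 341 CPM with Zfp488, against 217, 255, 265 and 239 CPM in control, a log2 fold change of 0.38 ± 0.10 (n = 4 and 4, edgeR adjusted p = 0.0412). Man2b1 had 188, 192, 215 and 209 CPM with Zfp488, against 238, 232, 282 and 294 CPM in control, a log2 fold change of -0.37 ± 0.09 (n = 4 and 4, edgeR adjusted p = 0.0312). Arsb and Man2b1 had neighbouring groups that just failed to overlap.

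The groups did not overlap for 8 genes higher and 3 lower with Zfp488, against 8.67% and 7.05% of all genes. Of the 7 calls only that of Lipa held without each library in turn and under every other setting. Without Zfp488 replicate 4 it was the single gene left (Ctsl had an edgeR adjusted p of 0.0542 and Smpd1 of 0.0671). Without Zfp488 replicate 2, control replicate 3 or control replicate 4 there were 4 calls each, and without control replicate 2 there were 3. Smpd1 was lost without control replicate 1 or 2, Scarb2 without control replicate 2 or 4 or Zfp488 replicate 4, and Man2b1 without control replicate 3 or 4 or Zfp488 replicate 2 or 4. Arsb was lost without any 1 control or without Zfp488 replicate 2, 3 or 4, and Cd63 without control replicate 2, 3 or 4 or Zfp488 replicate 1, 2 or 4. The Nkx2.2 libraries share the estimate of spread, and Cd63 was also lost without Nkx2.2 replicate 1, 2 or 4 (edgeR adjusted p 0.0547 to 0.0666) and Arsb without Nkx2.2 replicate 4 (0.0607). Both were lost with no filter on low counts (edgeR adjusted p = 0.0625 for Cd63 and 0.0627 for Arsb) and with only the 8 libraries compared in the fit (0.0811 and 0.0562).

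Replicate numbers pair the differentiating CG4 libraries, and the fit behind the 7 calls above ignores this pairing. With the number as a block 16 genes passed, 13 higher and 3 lower (24.1% of all genes, 14.0% higher and 10.2% lower). The 7 calls above passed with the block as well. The 9 further genes are Tfeb (edgeR adjusted p with the block 0.000802), Neu1 (0.00717), Lamp1 (0.0176), Galc (0.0224), Hexa (0.0414), Tfe3 (0.0414) and Arsa (0.0434), which were higher, and Ctsz (0.00421) and Idua (0.0332), which were lower. Of these 9, Galc and Neu1 passed in DESeq2 too (adjusted p = 0.0198 and 0.0185). Without the block Tfeb passed when Zfp488 replicate 1 was left out (edgeR adjusted p = 0.0364), Galc without Nkx2.2 replicate 1 (0.0469), and Neu1 without control replicate 4 (0.0469) and with RLE scaling (0.0497). Tfeb had 41.2, 52.0, 63.8 and 63.0 CPM with Zfp488, against 33.0, 35.3, 44.6 and 46.5 CPM in control, a log2 difference of 0.48 ± 0.17 (n = 4 and 4, edgeR adjusted p = 0.104 without the block). In each of the 4 pairs of libraries with the same number Tfeb was higher with Zfp488, while the groups overlapped. Galc had 14.0, 11.2, 12.5 and 14.6 CPM with Zfp488, against 10.2, 10.3, 10.4 and 10.1 CPM in control, which did not overlap (log2 0.36 ± 0.11, n = 4 and 4, edgeR adjusted p = 0.0659 without the block). Lamp1 (428, 358, 336 and 401 CPM with Zfp488), Arsa (87.0, 95.6, 112 and 109 CPM) and Tfe3 (39.1, 39.98, 37.3 and 41.8 CPM) overlapped control, with log2 differences of 0.25 ± 0.13, 0.29 ± 0.11 and 0.21 ± 0.09 in that order. Ctsd (499.6, 408, 346 and 427 CPM) and Psap (1854, 1724, 1827 and 1913 CPM) differed from control by 0.03 ± 0.18 and -0.01 ± 0.08 on the log2 scale and passed neither way.

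**Figure D3:**
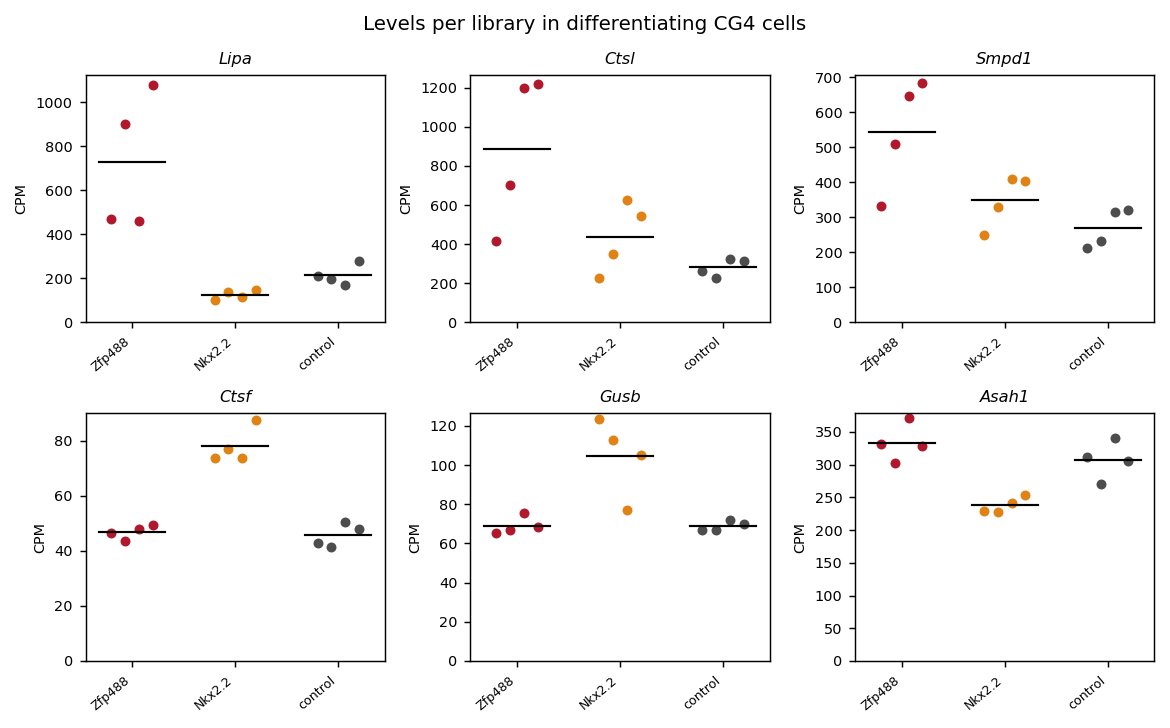
Level in CPM of 6 lysosomal genes in differentiating CG4 cells with Zfp488, with Nkx2.2 and in control, 1 point per library and a line at the mean (n = 4 per group, axes from 0). Lipa, Ctsl and Smpd1 are highest with Zfp488, Ctsf and Gusb with Nkx2.2, and Asah1 is lowest with Nkx2.2.

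Added Nkx2.2, a homeodomain factor of the oligodendroglial lineage, was compared with the same 4 controls, so the Nkx2.2 and Zfp488 comparisons are not independent. Of the 39 genes 4 rose (Ctsf, Gusb, Glb1 and Grn), 1 fell (Asah1) and 34 did not pass. Across all genes tested 10.6% passed, 6.10% higher and 4.48% lower, against 10.3% and 2.56% of the 39 genes. The median log2 fold change was 0.13 over the 39 genes and -0.01 over all genes tested.

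Ctsf had 73.6, 76.9, 73.6 and 87.6 CPM with Nkx2.2, against 42.7, 41.4, 50.5 and 47.9 CPM in control, a log2 fold change of 0.78 ± 0.09 (n = 4 and 4, edgeR adjusted p = 0.000137). Gusb had 124, 113, 76.9 and 105 CPM with Nkx2.2, against 67.0, 66.7, 72.0 and 70.0 CPM in control, a log2 fold change of 0.61 ± 0.12 (n = 4 and 4, edgeR adjusted p = 0.00577). The groups did not overlap for either gene, and Nkx2.2 replicate 3 came nearest to the controls for Gusb. Glb1 had 109.7, 112, 96.9 and 122 CPM with Nkx2.2, against 83.5, 81.3, 81.9 and 94.4 CPM in control, a log2 fold change of 0.38 ± 0.08 (n = 4 and 4, edgeR adjusted p = 0.00874). Grn had 186, 181, 151 and 189.5 CPM with Nkx2.2, against 137, 135, 129 and 147 CPM in control, a log2 fold change of 0.38 ± 0.09 (n = 4 and 4, edgeR adjusted p = 0.0158). Glb1 and Grn had Nkx2.2 groups just above control, with replicate 3 lowest in both. Asah1 had 229, 228, 241 and 253 CPM with Nkx2.2, against 312, 269.8, 341 and 305 CPM in control, a log2 fold change of -0.36 ± 0.09 (n = 4 and 4, edgeR adjusted p = 0.0206). All 4 Nkx2.2 libraries lay below all controls for Asah1.

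The groups did not overlap for 8 genes higher and 3 lower with Nkx2.2, against 8.19% and 7.76% of all genes. The calls of Ctsf, Gusb and Glb1 held under every setting tried. Grn was lost without Nkx2.2 replicate 2 or 4 (edgeR adjusted p = 0.0502 and 0.0584), and Asah1 without control replicate 1 or 3 or Nkx2.2 replicate 2 (edgeR adjusted p 0.0512 to 0.0597). There were 3 calls without Nkx2.2 replicate 2 and 9 without Nkx2.2 replicate 3, which added Ctsa, Ctsb, Ctsd and Lamp1. With the replicate block 16 genes passed, 12 higher and 4 lower (26.2% of all genes, 12.6% higher and 13.5% lower), and DESeq2 called 8. Genes that passed with the block and not without it were higher for Lamp1 (edgeR adjusted p with the block 0.00112), Ctsd (0.00179), Ctsa (0.00344), Smpd1 (0.00655), Tpp1 (0.0138), Ctsb (0.0419), Naglu (0.0422) and Neu1 (0.0451). They were lower for Ctsz (0.000166), Lipa (0.0045) and Hexa (0.0084). Of these 11, Lamp1, Ctsb and Lipa passed in DESeq2 as well (adjusted p = 0.0331, 0.0239 and 0.0344), Lipa also with only the 8 libraries compared in the fit (edgeR adjusted p = 0.0229) and Tpp1 without Zfp488 replicate 1 (edgeR adjusted p = 0.0489). Lamp1 had 438, 417, 347 and 495 CPM with Nkx2.2 and overlapped control (log2 0.40 ± 0.13, n = 4 and 4, edgeR adjusted p = 0.0633 without the block). Ctsd had 589.9, 643, 427 and 719 CPM with Nkx2.2, also overlapping control (log2 0.53 ± 0.18, n = 4 and 4, edgeR adjusted p = 0.0877 without the block). Tfeb (35.9, 41.1, 55.9 and 47.8 CPM), Tfe3 (35.7, 34.6, 29.1 and 31.3 CPM), Galc (13.4, 10.5, 10.5 and 11.03 CPM), Arsa (71.1, 92.3, 90.2 and 102 CPM) and Psap (1932, 1984, 1760.2 and 2112 CPM) passed neither way, with log2 differences from -0.06 (Tfe3) to 0.19 (Tfeb).

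**Figure D4:**
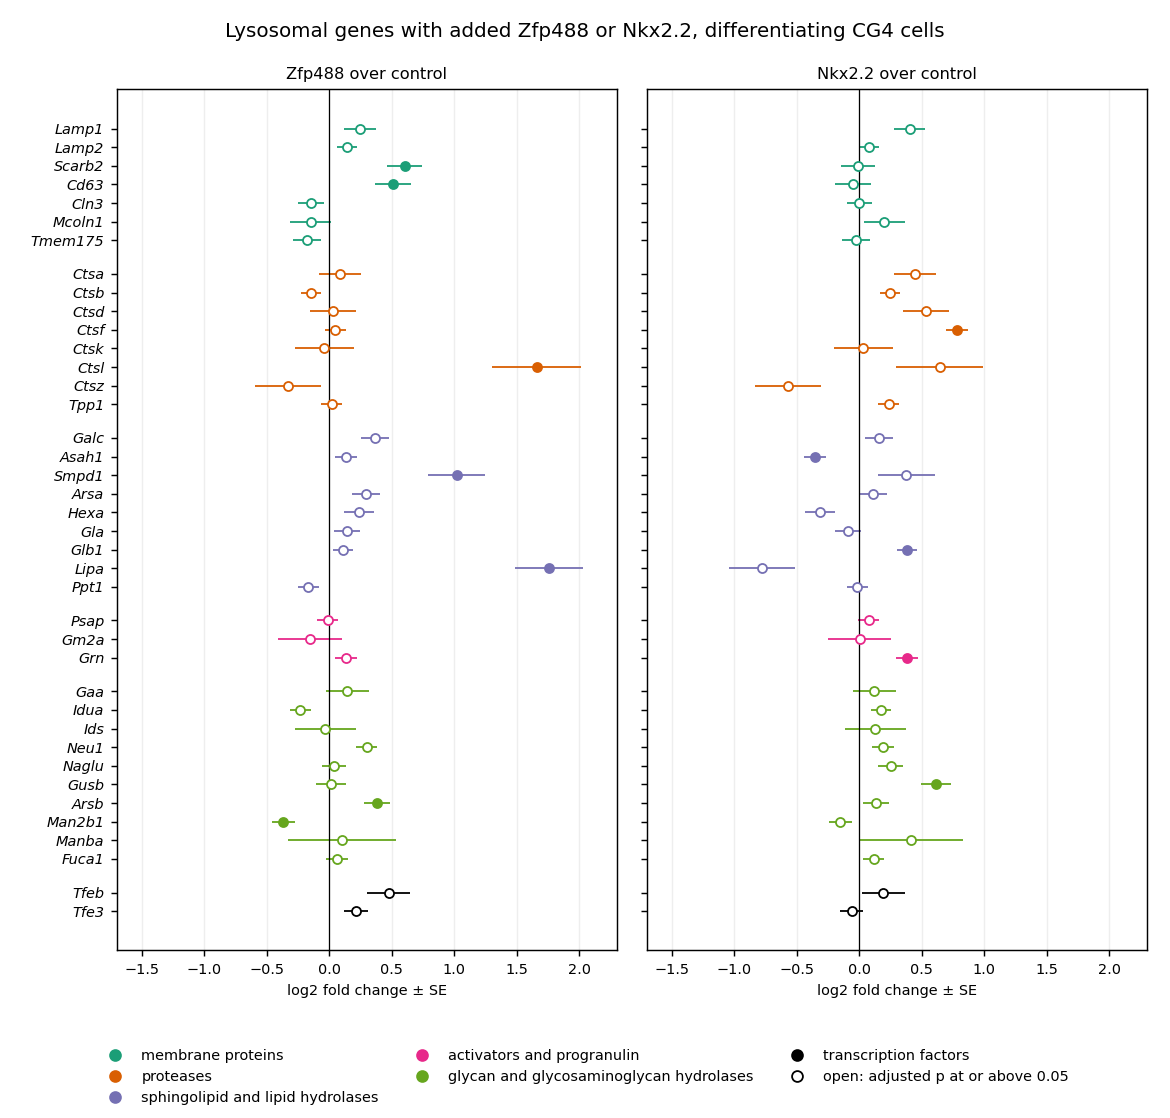
Log2 fold change ± SE of 39 lysosomal genes with Zfp488 over control (left) and with Nkx2.2 over the same controls (right), n = 4 per group, coloured by role, open where the adjusted p is at or above 0.05. With Zfp488 Lipa, Ctsl and Smpd1 stand right of the rest, and with Nkx2.2 Lipa and Ctsz lie left of 0 without passing.

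Zfp488 and Nkx2.2 libraries were then compared with each other. No control library enters the difference, but the controls share the estimate of spread and so bear on the p-values. The contrast passed for 10 of the 39 genes, 5 higher and 5 lower with Zfp488 than with Nkx2.2, where 25.3% of all genes passed, 13.3% higher and 12% lower. The share of the 39 genes is close to that background. Higher with Zfp488 were Lipa (2.55 ± 0.28, edgeR adjusted p = 8.68e-05), Asah1 (0.49 ± 0.09, 0.00185), Hexa (0.55 ± 0.12, 0.00609), Scarb2 (0.61 ± 0.14, 0.007) and Cd63 (0.56 ± 0.15, 0.0148). Lower with Zfp488 were Ctsf (-0.74 ± 0.09, edgeR adjusted p = 0.000131), Gusb (-0.60 ± 0.12, 0.00339), Idua (-0.41 ± 0.08, 0.0036), Ctsb (-0.39 ± 0.08, 0.00424) and Glb1 (-0.27 ± 0.08, 0.0244). None of these 10 genes had overlapping groups (26.4% of all genes had none, 13.9% higher and 12.5% lower), and Lipa, at 460.1 to 1078 CPM with Zfp488 and 99.5 to 146 CPM with Nkx2.2, was the furthest apart. Lipa had 99.5, 138, 114 and 146 CPM with Nkx2.2, and Scarb2 had 229, 254, 298 and 351 CPM with Zfp488, against 150.5, 177, 193 and 219.6 CPM with Nkx2.2. Asah1 had 332, 303, 371 and 329 CPM with Zfp488, Ctsf had 46.5, 43.5, 47.8 and 49.5 CPM and Gusb had 65.4, 66.6, 75.6 and 68.5 CPM. For these 3 genes the Zfp488 libraries overlapped control. Hexa had 301, 346, 384 and 443 CPM with Zfp488, against 218, 264, 255 and 268 CPM with Nkx2.2, and Idua had 84.3, 76.0, 81.3 and 81.6 CPM with Zfp488, against 121, 104, 94.9 and 108 CPM with Nkx2.2. The Zfp488 and Nkx2.2 libraries of both genes stood apart. Ctsb had 564, 561, 620.0 and 540.3 CPM with Zfp488, against 761, 758, 659 and 823 CPM with Nkx2.2. The differences of Lamp1 (-0.16), Ctsd (-0.50), Psap (-0.09), Galc (0.20), Arsa (0.18), Tfeb (0.28) and Tfe3 (0.27) did not pass in the main fit, which has no replicate block. Tfe3 passed with only the 8 libraries compared (edgeR adjusted p = 0.0474) and without control replicate 1 or 3 (0.0424 and 0.0341). Ctsd passed without control replicate 3 (edgeR adjusted p = 0.0385), Zfp488 replicate 1 (0.0443) or Nkx2.2 replicate 3 (0.0156). With the block Ctsd (edgeR adjusted p with the block 0.00174), Tfeb (0.00618) and Tfe3 (0.00862) passed, and in DESeq2 Ctsd and Tfe3 passed (adjusted p = 0.046 and 0.0355). Glb1 was lost without Zfp488 replicate 2, 3 or 4 or Nkx2.2 replicate 2 or 4, and Cd63 without Nkx2.2 replicate 1. There were 16 calls without Zfp488 replicate 1 and 16 without Nkx2.2 replicate 3, and the replicate block gave 24, 12 in each direction (42.4% of all genes, 22.0% higher and 20.3% lower), among them Smpd1 (edgeR adjusted p with the block 0.000168) and Ctsl (0.00144).

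Cell type markers differed between the factor groups too. The 10 oligodendroglia markers summed to 19688 to 34849.6 CPM with Zfp488, 8405 to 19663 CPM with Nkx2.2 and 12633 to 20223 CPM in control. The 3 fibroblast and vessel markers summed to 23.9 to 75.5 CPM with Zfp488, 36.3 to 129 CPM with Nkx2.2 and 8.20 to 21.1 CPM in control. The 5 microglia markers summed to 6.73 to 10.3 CPM with Zfp488, 8.31 to 17.4 CPM with Nkx2.2 and 7.15 to 12.9 CPM in control. The 5 Schwann cell markers summed to 146 to 216 CPM with Zfp488, 214 to 923 CPM with Nkx2.2 and 128 to 146 CPM in control, and the Nkx2.2 and control libraries did not overlap. The 5 neuron markers summed to 517 to 696 CPM with Zfp488, 353 to 393 CPM with Nkx2.2 and 371 to 524 CPM in control, and the 7 astrocyte markers to 1284 to 2533 CPM with Zfp488, 1271 to 3278 CPM with Nkx2.2 and 1224 to 3068 CPM in control. Markers that rose with Zfp488 include Mog of the oligodendroglia list, Col3a1 and Fn1 of the fibroblast list, Csf1r of the microglia list, Tubb3 of the neuron list (1.70 ± 0.35 on the log2 scale), Ngfr of the Schwann cell list and Gja1 of the astrocyte list, and Olig1, Syt1 and Slc1a3 fell. Csf1r rests on few counts, at 0.397 to 0.795 CPM with Zfp488 and 0.197 to 0.361 CPM in control. Of the 5 microglia markers 2 had a positive log2 fold change with Zfp488, and the median was -0.2. Markers that rose with Nkx2.2 include Cspg4, Fn1 and Laptm5. Laptm5 was low as well, at 0.678 to 1.86 CPM with Nkx2.2 and 0.345 to 0.891 CPM in control. With Nkx2.2 none of the 7 astrocyte and none of the 5 neuron markers passed edgeR's test, with 4 and 1 at an unadjusted p under 0.05 and 2 and 1 passing by DESeq2. Their part in the lysosomal changes was not tested.

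Other genes of the pathway were counted from lists chosen by function. Of the subunits and accessory proteins of the V-ATPase, the proton pump of the lysosome, 11 of 14 tested rose and 2 fell in primary differentiation, against 4 rises and 2 falls of 14 in CG4 differentiation. Of all genes 84.8% passed in primary and 65.8% in CG4 cells, and the V-ATPase share, 6 of 14, is below it in CG4 cells. In primary cells Atp6v0e2 (1.46), Atp6v1a (0.95) and Tcirg1 (-2.09 on the log2 scale) had the smallest adjusted p. The response to differentiation was lower in CG4 than in primary cells for 8 of the 14 and higher for 3 (35.4% and 33.8% of all genes). Of 18 tested, 2 rose with Zfp488 (Atp6v1b2 0.30 and Atp6v1f 0.32) and 1 with Nkx2.2 (Tcirg1 0.77), and none fell with either. Among all genes 5.89% rose and 3.15% fell with Zfp488, and 6.10% rose and 4.48% fell with Nkx2.2.

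Genes that sort hydrolases to the lysosome rose in 9 of 14 cases and fell in 3 in primary differentiation, and rose in 8 and fell in 3 in CG4 differentiation. The share that passed is close to that of all genes in primary cells (84.8%), where 41.5% rose and 43.3% fell, and above it in CG4 cells (65.8%). Gnptab, which makes the mannose 6-phosphate tag, rose by 1.89 in primary and 1.63 in CG4 cells, and the sorting receptor Sort1 by 2.81 and 0.92. With Zfp488 none of 15 passed edgeR's test, with 1 at an unadjusted p under 0.05 and 1 passing by DESeq2, and with Nkx2.2 Sort1 rose by 0.80 and Vps4b, an ATPase of the ESCRT machinery, fell by 0.50. The share of all genes that passed edgeR's test was 9.04% with Zfp488 and 10.6% with Nkx2.2.

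Among 24 further lysosomal genes, 14 rose and 8 fell in primary cells, and 10 rose and 3 fell in CG4 cells, where 84.8% and 65.8% of all genes passed, so that the list lies below the share of all genes in CG4 cells. In primary cells the serine carboxypeptidase Scpep1 fell (-2.02) and Ostm1, the partner of a lysosomal chloride transporter, rose (1.79), and the legumain gene Lgmn rose by 3.61 in CG4 cells. Of 25 tested, 1 rose with Zfp488 (the cholesterol carrier Npc2, 0.56) and 4 with Nkx2.2, among them the peptidase Dpp7 (0.80), the peptide transporter Abcb9 (1.40) and the acid nuclease Dnase2 (0.85). Of all genes 5.89% rose with Zfp488 and 6.10% with Nkx2.2.

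Autophagy genes, whose products deliver cargo to the lysosome, rose in 20 of 23 cases and fell in 1 in primary differentiation, and rose in 8 and fell in 3 in CG4 differentiation. Of all genes 41.5% rose in primary and 32.5% in CG4 cells. Wipi1 (2.92), Plekhm1 (1.30) and Atg3 (1.39) led in primary cells, and the receptor gene Sqstm1 (1.58) had the smallest adjusted p in CG4 cells. The response was lower in CG4 cells for 11 of the 23 and higher for 5 (35.4% and 33.8% of all genes). Plekhm1, which links autophagosomes and lysosomes, rose by 0.35 with Zfp488 and fell by 0.52 with Nkx2.2, and Zfp488 and Nkx2.2 differed by 0.87 ± 0.07 (edgeR adjusted p = 1.52e-05). Of the list 9 genes were higher with Zfp488 than with Nkx2.2 and none lower (background 13.3% and 12%).

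In the list of mTORC1 and regulators of TFEB, 7 of 15 rose and 3 fell in primary cells, and 6 rose and 4 fell in CG4 cells. The share that passed is below that of all genes in primary cells (84.8%) and near it in CG4 cells (65.8%). Flcn, the folliculin gene whose product lets mTORC1 act on TFEB, rose by 1.80 and Mitf, a relative of TFEB, by 2.89 in primary cells. In CG4 cells Fnip2 (-0.94) and Tsc1 (-1.36) fell. Of 16 tested, 2 rose and 1 fell with Zfp488 (Flcn 0.36, the Rag GTPase gene Rragc 0.25 and Fnip2 -0.36), and 1 rose and 2 fell with Nkx2.2 (Flcn 0.52, Mitf -0.75 and the Rag GTPase gene Rraga -0.31). Among all genes 5.89% rose and 3.15% fell with Zfp488, and 6.10% rose and 4.48% fell with Nkx2.2.

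In the authors' deposited table, 9 of the 39 genes were higher and 2 lower with Zfp488 at an adjusted p under 0.05, where 9.05% and 4.96% of all genes with an adjusted p in that table were. With Nkx2.2 the authors' deposited table has 8 of the 39 genes higher and 3 lower, where 8.03% and 6.38% of all genes were.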

How the data were processed

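Per the submitters' processing notes, reads were trimmed with Trimmomatic 0.36, aligned to rn6 with STAR 2.5.2b and counted with featureCounts of Subread 1.5.2. The authors deposited whole counts per gene. Their 2 deposited tables also hold log2 fold changes, p-values and, per library, a signal that is the count divided by a size factor. Gene names, fold changes and adjusted p-values of these tables were used, and the signal was not. How strand and reads mapping to several genes were handled is not given in the sources used here. Values of genes that overlap, are antisense to one another or have close copies are therefore uncertain.

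Counts were fitted with edgeR 4.0.16 (R 4.3.3, limma 3.58.1) by quasi-likelihood, with TMM scaling, filterByExpr and Benjamini-Hochberg adjustment over all genes, called at 0.05. Separate fits were made for the 12 differentiating CG4 libraries, for the 8 primary libraries, and for control with proliferating CG4 libraries. The difference of responses used 15 libraries over the shared genes. The fits were tested on simulated data. DESeq2 1.42.0, RLE scaling, no filter, the replicate block, each library left out, only the 8 libraries compared, summed close pairs, thinned counts and, chosen after seeing the data, leaving out either pair of differentiating primary libraries were alternatives.

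The labels do not say what replicate numbers mark. Deviations of same-numbered differentiating CG4 libraries correlated in every pair (0.192 to 0.69 for Zfp488 and control, 0.143 to 0.554 for Nkx2.2 and control, 0.264 to 0.559 for Zfp488 and Nkx2.2). These libraries are therefore paired by number, but the main fits held no block and ignore the pairing. The calls with each library left out and the plotted fold changes come from fits without the block too. Results with the block are given as an alternative. Primary pairs ranged from -0.0443 to 0.103 and CG4 control and proliferating pairs from -0.13 to 0.0449, and were not taken as paired.

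Lamp1, Ctsd, Psap, Galc, Arsa, Tfeb and Tfe3 were described throughout, with the 8 passing genes of smallest adjusted p in each comparison, and up to 3 per pathway list. A gene that this rule names in a pathway list is not reported here. The members and lists were chosen with earlier results of these data known.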

Additional observations from a re-analysis of the deposited data

Results flagged for a closer look

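In 5 of 195 groups of 4 libraries 1 library lay far from the other 3, a gap that chance gives in about 1 in 20 groups. Cd63 stood at 700.1 CPM in Zfp488 replicate 3 and at 861 to 884 CPM in the others. Hexa stood at 366 CPM in control replicate 4 and at 293 to 304 CPM in the others, and Glb1 at 94.4 CPM in the same library and at 81.3 to 83.5 CPM in the others. In proliferating primary cells Gla stood at 12.7 CPM in replicate 4 and at 11.8 to 11.9 CPM in the others, and Psap at 1523 CPM in replicate 2 and at 1618 to 1636 CPM in the others.

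The response to differentiation differed between CG4 and primary cells by the interaction test for 32 of the 39 genes. On the log2 scale it was higher in CG4 cells for Ctsz (6.74), Idua (4.06), Ctsb (3.12), Cd63 (2.60), Grn (2.27), Fuca1 (2.17), Ctsk (2.13), Man2b1 (1.94), Naglu (1.88), Gaa (1.85), Ctsa (1.68), Psap (1.49), Ctsd (1.31), Ctsf (1.04), Gm2a (1.03), Lipa (1.02), Neu1 (0.96), Glb1 (0.94), Tpp1 (0.68), Hexa (0.52) and Ppt1 (0.32). It was lower in CG4 cells for Ids (-2.38), Manba (-1.90), Tfeb (-1.72), Ctsl (-1.44), Scarb2 (-1.31), Lamp1 (-1.24), Gla (-1.14), Arsb (-1.10), Asah1 (-1.03), Galc (-0.81) and Lamp2 (-0.80). In CG4 cells the condition cannot be told apart from read length, vector and gene list.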

How the results depend on the processing

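The 39 genes under 6 comparisons gave 234 results. Of their alternatives, 3760 stayed on the same side of the threshold, 98 newly passed and 81 no longer passed. No result that passed in the main fit or in the alternative changed sign. Changes of sign where neither passed were not counted.

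The replicate block, for which the numbers pair the differentiating CG4 libraries, raised the calls among the 39 genes to 16 for Zfp488 (7 without it), 16 for Nkx2.2 (5) and 24 between the factors (10), and among all genes to 3576, 3876 and 6276 (1339, 1567 and 3741 without it). Where the numbers do not pair, it gave 37 calls in primary cells, 27 in CG4 cells and 31 for the difference of responses. The block left out control replicate 4 in the CG4 fits. It lost Cln3, Ctsk and Lamp1 in CG4 cells and Ppt1 and Manba in the difference. For Nkx2.2 DESeq2 called 8 of the 39 genes and 2317 of all genes (5 and 1567 in the main fit). For Zfp488 it called 2116 of all genes (1339 in the main fit).

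Leaving out 1 library gave 1 to 7 calls for Zfp488, 3 to 9 for Nkx2.2, 9 to 16 between the factors, 34 to 37 in primary cells, 28 to 31 in CG4 cells and 30 to 34 for the difference. Calls that held under all settings run were 1 of 7, 3 of 5, 8 of 10, 34 of 36, 27 of 30 and 28 of 32 in the same order. Summed close pairs, RLE scaling and DESeq2 lost Man2b1 in primary cells. The lowest levels, and so the fewest counts behind a value, were those of Ctsk (0.193 to 2.17 CPM) and, in CG4 cells, Manba (0.0722 to 1.41 CPM). The causes were not tested.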
